A study of Danio rerio with 49 samples.

Results

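The transcribed loci described here lie beside annotated genes of the zebrafish spinal cord but carry no gene identifier of their own. Among the 40085 rows of the deposited expression table, 31901 are Ensembl genes and 8184 are loci assembled from the reads without an annotation. A locus was kept when its mean level over all 49 libraries was at least 1 FPKM. FPKM are fragments scaled to transcript length and to a total set for each library. A kept locus also had at least 1 Ensembl gene on the same chromosome that overlapped it or lay within 5000 bp. Members were thus chosen by their mean FPKM over these same libraries and by position, which gave 659 loci of the 8184, against 1760 unannotated loci of the same level with no Ensembl gene that near. The 3 loci just inside the level limit had mean levels of 1.0015, 1.0017 and 1.0020 FPKM, and the 3 just outside it had 0.99999, 0.9991 and 0.9969 FPKM. The 3 loci just inside the distance limit lay 4936, 4895 and 4890 bp from a gene, and the 3 just outside it lay 5003, 5012 and 5042 bp away.

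RNA was sequenced from spinal cord segments of AB strain zebrafish, juveniles or young adults of both sexes aged 6 to 8 weeks, either uninjured or 1, 2, 4 or 6 weeks (wpi, weeks after the injury) from complete transection of the cord. Segments rostral and caudal to the lesion were collected apart, and the matching segments of uninjured fish were the rostral and caudal controls. Each of the 10 groups had 5 libraries, except caudal 6 wpi with 4. Each week was compared with the control of the same region, so the 4 comparisons of a region share their control libraries. Whether the age given is that at injury or at collection is not stated, and the controls carry no week. Effects of age and of time after injury therefore cannot be told apart. Tissue of 3 fish was collected for each group, and the paper describes the libraries as made from pooled samples. The paper's methods name 3 fish at each week for both regions, so the 2 regions may share fish. Calls made in both regions are therefore not shown to be independent. The labels do not say that libraries came from separate fish. The p-values below measure only the spread between these libraries, which may be technical.

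Transcripts found beside a known gene can be of several kinds. Some are separate noncoding genes, some start at a promoter or enhancer and run away from the gene, and some are pieces of a long 3′ untranslated region that the annotation cuts short. Long 3′ untranslated regions are well known for genes of the nervous system. The library kit does not mark the strand, and the strand of a locus without an intron cannot be read from such reads, so a locus given the opposite strand may in truth run along with its neighbour. Which of these a given locus is was not tested.

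The libraries held between 4359571 and 26940599 fragments on the rows of the table, with a median of 19801039. The lowest was rostral 1 wpi replicate 1, and the next lowest, at 11102591, was replicate 2 of that group. The 659 loci took between 0.370% and 0.955% of the fragments of a library. In all 10 groups replicates 4 and 5 had a lower share on these loci (0.370% to 0.524%) than replicates 1 to 3 (0.467% to 0.955%), and the part of this difference in the results was not tested beyond the values given with each replicate set alone. Markers of the labelled tissue were present. The summed level of 4 myelin genes lay between 12924 and 148710 FPKM, and that of 3 skeletal muscle genes between 0.287 and 18.9 FPKM. The sum of 3 epidermal genes lay between 0.179 and 99.5 FPKM, highest at caudal 2 wpi and at most 10.6 FPKM in the other groups. Red blood cell genes (2 of 4 matched) summed to 11.6 to 1200 FPKM. The 1 neuronal marker of 7 that could be matched, ELAVL3, lay between 63.6 and 139 FPKM. Markers of microglia and macrophages (4 of 5 matched, CORO1A near 0 at 0.0048 FPKM) summed to 250 to 1318 FPKM in rostral controls and to 5396 to 14372 FPKM at rostral 1 wpi, while the myelin sum was 41431 to 148710 FPKM in rostral controls and 16007 to 38174 FPKM at rostral 1 wpi. The part of these cell type changes in the results below was not tested, and in whole tissue fewer cells of a type and less RNA per cell cannot be told apart.

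Most of the loci lay past the 3′ end of their nearest gene. By the strand given in the table, 361 of 659 (54.8%) faced the gene tail to tail, on the opposite strand past its 3′ end. Another 118 (17.9%) were on the same strand downstream of it. On the 5′ side, 94 loci (14.3%) were head to head with the gene, on the opposite strand, and 80 (12.1%) were on the same strand upstream of it. Only 6 overlapped the nearest gene, 4 of them on the opposite strand. The 3′ side thus held 479 loci and the 5′ side 174. The grouping into a 3′ and a 5′ side was made after values were seen.

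The tail-to-tail loci were also the closest. Their median gap to the gene was 540 bp, against 2112 bp for same-strand downstream, 1340 bp for head-to-head and 1975.5 bp for same-strand upstream loci. Of the 130 loci within 100 bp of the gene, 105 were tail to tail, 19 head to head, 3 same-strand downstream and 3 same-strand upstream. In 180 of the 361 tail-to-tail loci the span on the chromosome equalled the transcript length, so that no intron was recorded, while this held for 27 of 118 same-strand downstream, 25 of 94 head-to-head and 20 of 80 same-strand upstream loci. Over all members 254 of 659 (38.5%) were such single blocks.

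Levels were low. The members ran from 1.00 to 196 FPKM with a median of 1.80, and the nearest gene was the higher of the pair, per length, for 468 of 659. Tail-to-tail loci had a median of 1.84 FPKM beside genes with a median of 5.35 FPKM. Head-to-head loci had a median of 1.90 FPKM beside genes with a median of 2.12 FPKM, and 45 of 94 had the higher gene. The 659 loci had 638 different nearest genes. For 236 loci a further Ensembl gene also lay within 5000 bp, so the choice of the nearest is not the only possible pairing.

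The injury changes of the loci were compared with limma on log2(FPKM + 0.1), a scale that understates the change of low loci, with Benjamini-Hochberg adjustment over all rows of the table. At rostral 1 wpi, 31 of 658 loci tested were higher than control (4.71%) and 47 lower (7.14%), against 6.32% higher and 3.5% lower over all rows. At rostral 2 wpi, 51 were higher (7.75%) and 92 lower (14%), against 9% and 6.14% of all rows. Of the members' nearest genes 6.53% were higher and 14.2% lower there, and of unannotated loci far from genes 10.2% and 6.82%. At rostral 4 wpi, 34 were higher and 15 lower (5.17% and 2.28%, against 5% and 1.43%). At rostral 6 wpi, 26 were higher and 8 lower (3.95% and 1.22%, against 3.44% and 0.823%). Libraries of the same number deviated together at 6 wpi, and on average at the other weeks as well. The replicate block gave 77 loci at rostral 6 wpi in place of 34. The count over all rows with that block is not given here, so the rise is not shown to be particular to these loci.

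Caudal to the lesion the lower calls were concentrated in the first week. At caudal 1 wpi, 30 of 658 loci were higher (4.56%) and 104 lower (15.8%), against 7.62% higher and 5.53% lower over all rows. Of the members' nearest genes 5.34% were higher and 8.68% lower there, and of unannotated loci far from genes 7.78% and 6.65%. At caudal 2 wpi, 31 of 659 were higher and 35 lower (4.7% and 5.31%, against 4.47% and 1.89%). At caudal 4 wpi, 6 were higher and 1 lower (0.91% and 0.152%, against 1.15% and 0.226%), with 114 at an unadjusted p under 0.05. At caudal 6 wpi, 5 were higher and 2 lower (0.76% and 0.304%, against 0.345% and 0.116%), with 90 at an unadjusted p under 0.05, and with the replicate block the count of 7 became 2. 

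The members as a whole stood a little lower after injury than in control. The median log2 change was -0.23 at rostral 1 wpi, -0.34 at rostral 2 wpi, -0.20 at rostral 4 wpi and -0.28 at rostral 6 wpi. In the caudal cord it was -0.31, -0.26, -0.11 and -0.06 at the same weeks. The median of all rows lay between -0.034 and -0.0040 in these comparisons, that of unannotated loci far from genes between -0.06 and 0.03, and that of the members' nearest genes between -0.19 and -0.04. From replicates 1 to 3 alone the members' median at rostral 1 wpi was -0.41, and from replicates 4 and 5 alone it was -0.02. For caudal 1 wpi the same values were -0.30 and -0.33, and at caudal 4 wpi replicates 4 and 5 gave 0.04. At caudal 6 wpi the median was above 0 without caudal control replicate 1 (0.0048) or without replicate 2 (0.033) or 5 (0.027) of that week.

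**Figure D1:**
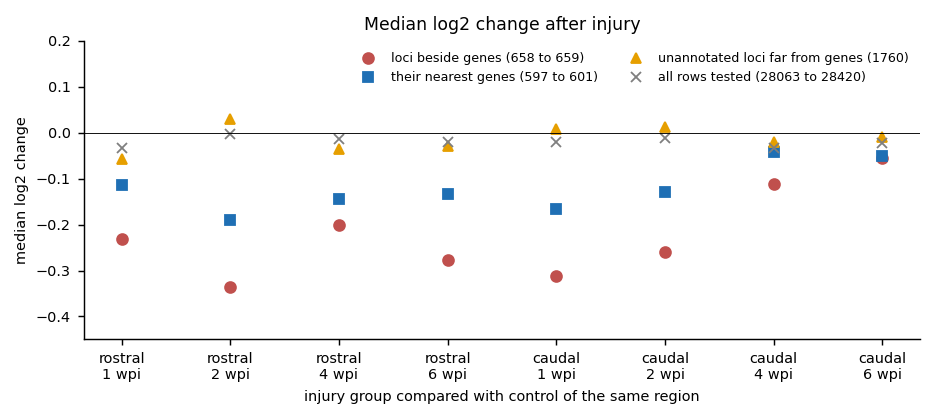
Median log2 change on the log2(FPKM + 0.1) scale (vertical axis) in each injury group against the control of its region (horizontal axis), for the loci beside genes, their nearest genes, unannotated loci far from genes and all rows tested. The loci beside genes lie lowest in all 8 comparisons, from -0.34 at rostral 2 wpi to -0.06 at caudal 6 wpi.

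Loci on the 3′ side changed much as their neighbours did. Across pairs of a locus and its nearest gene, Pearson's r of the 2 log2 changes ran from 0.49 to 0.58 over the 8 comparisons (617 to 621 pairs). On the 3′ side it ran from 0.58 to 0.70 and on the 5′ side from 0.12 to 0.33. These values describe pairs measured in the same libraries against shared controls, and pairs are not independent replicates. Pairs of 2 neighbouring Ensembl genes from the same table had r between 0.17 and 0.18 over 8943 to 9017 pairs, and r between 0.11 and 0.14 where the gene paired lay on the 3′ side. These pairs were not matched to the loci in gap, and 3679 of 10621 overlapped, against 6 of 659 loci. Genes nearest to each other could enter as 2 pairs. Locus and gene also varied together within the groups. With neighbours of at least 1 FPKM, the deviations of the pair from their group means within a library had a median r over the 49 libraries of 0.39 on the 3′ side, 0.23 on the 5′ side and 0.14 for Ensembl pairs on the 3′ side. For the same pairs r of the injury changes was 0.64 to 0.77 on the 3′ side and 0.08 to 0.31 on the 5′ side. Injury changes are differences of group means and the deviations are those of single libraries, so the sizes of these r cannot be compared directly.

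Over all loci of a class, tail-to-tail pairs had the highest r in all 8 comparisons. They had a median r over the comparisons of 0.71 (0.60 to 0.75) and same-strand downstream pairs 0.51 (0.43 to 0.60). Head-to-head pairs had 0.17 (0.10 to 0.35) and same-strand upstream pairs 0.22 (0.14 to 0.41). The values of the last 2 classes crossed from one comparison to the next. At rostral 1 wpi, r was 0.72 for 348 tail-to-tail pairs, 0.53 for 109 same-strand downstream pairs, 0.10 for 82 head-to-head pairs and 0.15 for 75 same-strand upstream pairs.

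**Figure D2:**
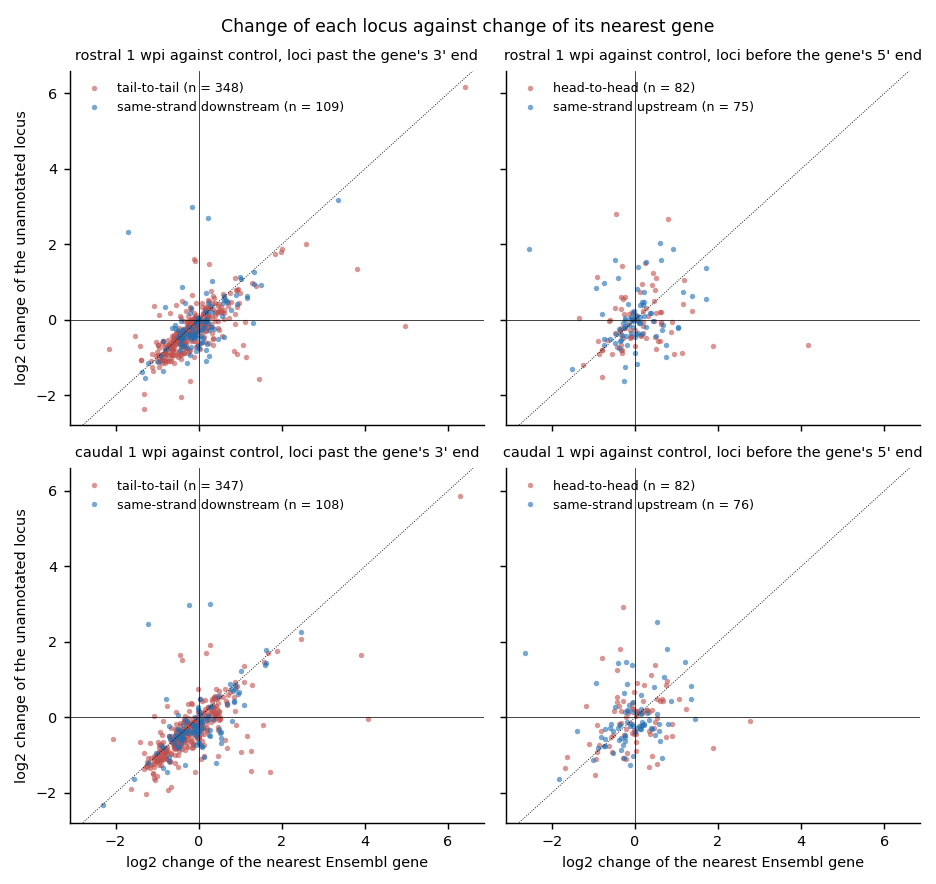
Log2 change of each unannotated locus (vertical axis) against that of its nearest Ensembl gene (horizontal axis) at 1 wpi, rostral (top) and caudal (bottom), for loci past the 3′ end of the gene (left) and before its 5′ end (right), with a dotted line where both are equal. Points on the left lie along the line, with the uts2a pair at the top right (6.42 for the gene and 6.18 for the locus at rostral 1 wpi), while points on the right spread around 0.

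**Figure D3:**
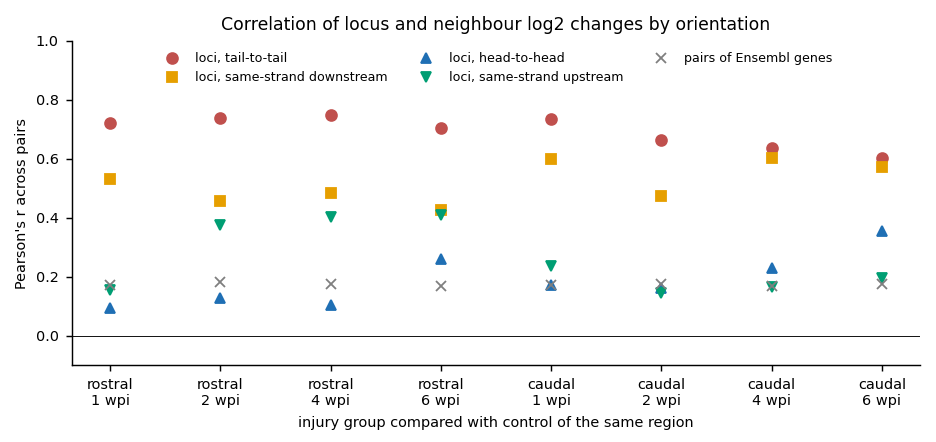
Pearson's r between the log2 changes of locus and nearest gene (vertical axis) in each injury group against control (horizontal axis), by orientation, with pairs of 2 Ensembl genes as crosses. Tail-to-tail pairs lie between 0.60 and 0.75 in all 8 comparisons and pairs of Ensembl genes between 0.17 and 0.18.

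Likeness on the 3′ side depended on distance, in a way that differed between the measures. For gaps up to 500 bp the median r was 0.79 (0.67 to 0.87), from there to 2000 bp it was 0.54 (0.52 to 0.64), and beyond 2000 bp it was 0.50 (0.44 to 0.60). Spearman's rho had medians of 0.711, 0.714 and 0.495 in the same order, with no step at 500 bp, and the uts2a pair, with its large change, lies in the first of these ranges. On the 5′ side loci within 500 bp had a median r of 0.18 (-0.02 to 0.48, 42 to 43 pairs). Tail-to-tail loci that were single blocks had a median r of 0.75 and the others 0.70, head-to-head loci 0.05 and 0.17. Among single blocks, the 26 same-strand downstream pairs had a higher r (0.87, 0.76 to 0.91) than the tail-to-tail pairs (0.69 to 0.78), with a median rho of 0.55 against 0.76. The change of locus and gene had the same sign for 72.3% to 82.0% of 3′ pairs and for 57.6% to 66.9% of 5′ pairs, against 54.9% to 56.5% of Ensembl pairs.

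The difference between a locus and its gene was then tested directly, as the log2 ratio of the 2 levels in each library, over all pairs of any row with its nearest Ensembl gene. At rostral 1 wpi, 13 of 620 loci rose and 15 fell relative to the gene, against 3.95% and 3.82% of all pairs. At caudal 1 wpi, 13 of 619 rose and 19 fell, against 4.94% and 4.9%. Of these, 22 loci were called in the same direction in both regions, 10 higher and 12 lower. They were 3.57% of the 616 members tested in both, against 5.5% of all pairs. At rostral 6 wpi, 9 of 621 rose and 6 fell (1.98% and 1.81% of all pairs), and at caudal 6 wpi 2 rose and 1 fell (0.121% and 0.0673%), with 35 at an unadjusted p under 0.05. With the replicate block the count at caudal 6 wpi was 0.

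By side, the ratio was called for 13 of 457 loci on the 3′ side at rostral 1 wpi (2.84%) and for 15 of 157 on the 5′ side (9.55%). In the caudal cord it was called for 17 of 455 (3.74%) and for 15 of 158 (9.49%). Pairs of Ensembl genes were called at 10.78% and 9.12% on the same sides at rostral 1 wpi, and at 14.24% and 11.73% at caudal 1 wpi. The difference between the sides was not itself tested. A ratio that was not called does not show that locus and gene changed alike. In simulated data at rostral 1 wpi the ratio test recovered 3 of 131 log2 differences of 1. Few rows were changed there and locus and gene varied independently, so recovery in the real data may differ.

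In 99 loci both the locus and its gene passed the level test in the same comparison at least once. In 67 both were lower, in 21 both were higher, and in 11 they went in opposite directions. These were 10.7%, 3.34% and 1.75% of 628 pairs, against 0.79%, 2.79% and 0.948% of 9494 pairs made of an Ensembl gene of at least 1 FPKM and its nearest Ensembl neighbour. Tail-to-tail pairs made up 52 of the 67, 11 of the 21 and 4 of the 11. Same-strand upstream pairs made up 2, 3 and 4 of these, same-strand downstream pairs 8, 6 and 1, and head-to-head pairs 4, 1 and 2.

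The locus with the largest rise lay beside uts2a, which encodes urotensin 2, a peptide of the caudal neurosecretory neurons of fish. The locus (chromosome 23, 30055773 to 30059206, minus strand, danRer11) faced uts2a tail to tail across a gap of 54 bp, and CAMTA1 also lay within 5000 bp. Its level in rostral controls was 0.375, 1.46, 1.58, 2.67 and 5.19 FPKM, and at rostral 1 wpi it was 37.3, 40.4, 124, 465 and 409 FPKM. In caudal controls it was 1.58, 2.06, 2.86, 3.75 and 12.2 FPKM, and at caudal 1 wpi 46.8, 81.6, 328, 551 and 511 FPKM. All injured libraries lay above all controls of their region, and replicate 4 or 5 was the highest in each of these 4 groups. One naming rule asked for calls and no overlap at 1 wpi in both regions, so these traits were set by the choice. The loci so named lay beside uts2a, si:ch211-180f4.1, si:dkeyp-122a9.1, slc12a5b, MOXD1, pabpc1a, EFNB3, pafah1b1b, gon4lb, RPE65 and mtnr1ba.

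The uts2a gene moved with it, from 0.0741, 0.508, 0.718, 0.965 and 2.25 FPKM in rostral controls to 15.3, 19.5, 53.4, 272 and 223 FPKM at rostral 1 wpi. The locus rose by 6.18 on the log2 scale (SE 0.80, limma adjusted p = 0.000677) and the gene by 6.42 (SE 0.87, adjusted p = 0.000922). Their ratio changed by -0.24 (SE 0.24, adjusted p = 0.639). The locus was called higher in all 8 comparisons, by 4.85 at rostral 6 wpi and by 3.34 at caudal 6 wpi (adjusted p = 0.0304). The last call was lost when any of caudal control replicates 1, 2, 3 and 4 or caudal 6 wpi replicates 1, 3 and 5 was left out, where the adjusted p reached 0.102.

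A locus beside slc12a5b showed the opposite course. The gene encodes a KCC2-type potassium chloride cotransporter of neurons, and the locus (chromosome 8, 37276326 to 37280493, minus strand) lay 39 bp downstream on the same strand. Its level was 7.76, 5.02, 9.52, 4.98 and 4.78 FPKM in rostral controls and 1.49, 2.02, 2.03, 2.93 and 2.04 FPKM at rostral 1 wpi, with no overlap. It fell by 1.54 on the log2 scale at rostral 1 wpi (SE 0.25, limma adjusted p = 0.00285) and by 1.63 at caudal 1 wpi (SE 0.20, adjusted p = 0.000532). The gene fell by 1.30 (SE 0.23, adjusted p = 0.00407) and by 1.57 (SE 0.28, adjusted p = 0.00445).

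**Figure D4:**
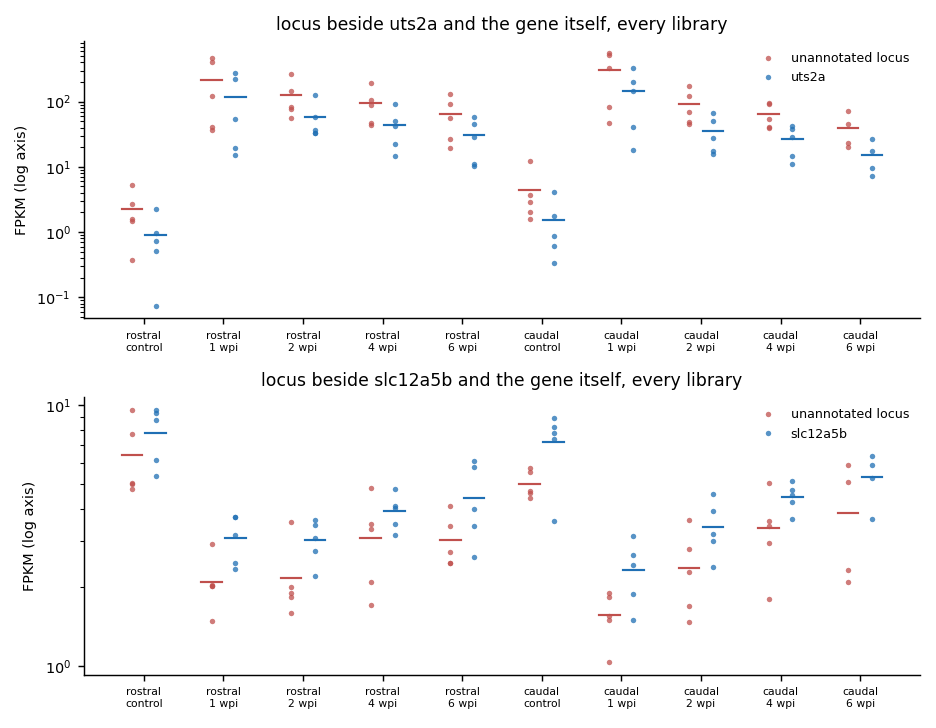
Level in FPKM (log axis) of the loci beside uts2a (top) and slc12a5b (bottom), in red, and of the genes themselves, in blue, in every library of the 10 groups on the horizontal axis, with bars at the group means. At uts2a both rise after injury, the locus from at most 5.19 to at least 37.3 FPKM at rostral 1 wpi, and at slc12a5b both fall at 1 wpi.

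Of the other loci named by rule that followed their gene, the one beside SLC2A1, the glucose transporter GLUT1, was called higher in 7 of 8 comparisons. It lay tail to tail at 1164 bp (chromosome 6, 48064815 to 48067531). Its level was 2.7, 1.54, 2.5, 2.07 and 1.46 FPKM in rostral controls and 5.72, 5.99, 8.74, 9.32 and 5.73 FPKM at rostral 1 wpi. The groups did not overlap. It rose by 1.75 (SE 0.24, limma adjusted p = 0.000919) and the gene by 1.84 (SE 0.25, adjusted p = 0.000935).

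A same-strand downstream locus of si:ch211-180f4.1 (chromosome 8, 8850338 to 8852427, gap 2172 bp) rose by 3.17 at rostral 1 wpi (SE 0.50, limma adjusted p = 0.00247) beside a rise of 3.36 in the gene. The caudal values were 2.27 and 2.47. The mean of this locus over all libraries was 1.98 FPKM, and its rise may in part be set by the rule for that mean. The locus beside mtnr1ba, a melatonin receptor gene (chromosome 15, 41064835 to 41066093, tail to tail), fell by 1.35 at rostral 1 wpi (adjusted p = 0.0124) and by 1.89 at caudal 1 wpi (adjusted p = 0.00489), while the gene changed by -1.11 (adjusted p = 0.0612) and -1.64 (adjusted p = 0.00179). The locus downstream of MOXD1 (chromosome 20, 25274638 to 25316571) fell by 1.35 at rostral 1 wpi (adjusted p = 0.011) and by 1.44 at caudal 1 wpi (adjusted p = 0.00637), where the gene changed by -0.86 (adjusted p = 0.0498) and -0.75 (adjusted p = 0.142). At rostral 6 wpi the MOXD1 gene fell by 1.35 (adjusted p = 0.0217) while the locus was not called (-0.54, adjusted p = 0.376).

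Only 1 member lay beside a matched gene of the lists drawn up for this tissue (macrophage and inflammation, matrix, proliferation, injury transcription factors, neurons and synapses, myelin, glia, housekeeping). It lay beside cacna1aa, a presynaptic calcium channel gene of the neuronal list, tail to tail at 3208 bp (chromosome 3, 33768462 to 33769948). The locus changed by -1.08 at rostral 1 wpi (limma adjusted p = 0.0846) and fell by 1.496 at caudal 1 wpi (adjusted p = 0.0151), while the gene changed by -0.83 (adjusted p = 0.16) and -1.0999 (adjusted p = 0.0654). The other 7 lists had 0 members beside their matched genes. Symbols in the table matched 18 of 37 neuronal, 12 of 24 matrix, 9 of 18 transcription factor, 6 of 12 glial, 23 of 31 macrophage, 11 of 14 myelin, 19 of 20 proliferation and 13 of 13 housekeeping genes, and members beside the rest would not be counted. Of the 15 genes of the neuronal list that could be tested, 1 was higher and 6 lower at caudal 1 wpi, with a median of -0.86. Over all rows 7.62% were higher and 5.53% lower there, with a median of -0.02. Other lists changed as well. In the same comparison 5 of 11 myelin genes were lower and 0 higher (median -1.31). Of 22 macrophage and inflammation genes, 16 were higher and 0 lower (median 1.64).

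Further pairs that fell together were picked after their values were seen. KCNA1 encodes a voltage-gated potassium channel, and its tail-to-tail locus (chromosome 4, 74556528 to 74557599, gap 251 bp) had 3.49, 3.81, 7.53, 2.76 and 5.58 FPKM in rostral controls and 1.04, 1.33, 1.83, 0.362 and 1.19 FPKM at rostral 1 wpi. The groups did not overlap, and the locus fell by 1.97 (limma adjusted p = 0.00764) beside a fall of 1.31 in the gene. Fitting all groups together ended this call, at an adjusted p of 0.0948. KCNMA1 encodes a calcium-activated potassium channel, and its locus at 48 bp (chromosome 13, 16886166 to 16889105) had 5.53, 2.84, 4.28, 3.76 and 3.76 FPKM in caudal controls and 2.18, 1.51, 1.84, 1.33 and 1.42 FPKM at caudal 1 wpi. All injured libraries were lower, and the locus fell by 1.23 (adjusted p = 0.00472) and the gene fell by 1.08 (adjusted p = 0.0182).

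DLG4, the postsynaptic scaffold protein PSD-95, had a member on each side. At caudal 1 wpi the upstream locus (chromosome 23, 44291480 to 44307341) fell by 1.13 (limma adjusted p = 0.00325), the tail-to-tail locus (44334790 to 44335905) fell by 1.54 (adjusted p = 0.0113) and the gene fell by 1.01 (adjusted p = 0.00332). Neither locus was called at rostral 1 wpi or rostral 2 wpi. Both loci share the gene and are not separate evidence of its change. The locus 3 bp past rab3da, a small GTPase of secretory vesicles (chromosome 1, 52176870 to 52178913), had 6.86, 7.17, 6.85, 7.71 and 7.5 FPKM in caudal controls and 3.13, 3.37, 4.58, 2.76 and 3.21 FPKM at caudal 1 wpi. It fell by 1.08 (adjusted p = 0.00255) and the gene fell by 0.99 (adjusted p = 0.0159).

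CSDC2, an RNA-binding cold-shock domain protein, had the best expressed of these loci (chromosome 3, 5004833 to 5008526, tail to tail at 445 bp). Its level was 36.1, 53.1, 48.0, 28.2 and 29.2 FPKM in caudal controls and 6.85, 18.7, 19.8, 10.2 and 16.8 FPKM at caudal 1 wpi, without overlap. It fell by 1.48 (limma adjusted p = 0.0097) and the gene fell by 1.1004 (adjusted p = 0.0211). At rostral 1 wpi the locus was not called.

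Pairs that rose together, also picked after their values were seen, included pdlim4, a PDZ and LIM domain protein of the actin cytoskeleton. Its tail-to-tail locus (chromosome 21, 43735027 to 43736833, gap 1565 bp) had 1.7, 0.764, 1.28, 1.4 and 1.18 FPKM in rostral controls and 3.9, 3.57, 4.2, 7.07 and 4.57 FPKM at rostral 1 wpi. The groups did not overlap, and the locus rose by 1.80 (limma adjusted p = 0.0011) and the gene by 1.98 (adjusted p = 6.76e-05). WWTR1 encodes TAZ, a coactivator of the Hippo pathway, and its locus (chromosome 22, 38117746 to 38121027) rose by 1.37 at caudal 1 wpi (adjusted p = 0.00976) beside a rise of 1.096 in the gene. That locus was not called at rostral 1 wpi.

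HES6, a basic helix-loop-helix factor of neurogenesis, had a locus called at later weeks in the rostral cord. This locus 3 bp away (chromosome 15, 7190186 to 7192964) was not called at 1 wpi in either region. It rose by 2.03 at rostral 4 wpi (SE 0.33, limma adjusted p = 0.00368) and by 2.17 at rostral 6 wpi (SE 0.44, adjusted p = 0.0176), beside rises of 2.36 and 2.50 in the gene. At caudal 6 wpi the locus was not called (1.36, adjusted p = 0.225). Its calls at 2 wpi were less firm: the rostral one (1.37, adjusted p = 0.025) was lost without replicate 1, 4 or 5 of rostral 2 wpi, and the caudal one on leaving out any 1 library.

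Other loci went against their gene or moved without it. RPE65 encodes the retinoid isomerase of the visual cycle in mammals. Its tail-to-tail locus at 2142 bp (chromosome 2, 1407608 to 1426554) had 9.96, 7.14, 8.37, 5.37 and 6.37 FPKM in rostral controls and 3.97, 2.6, 1.86, 1.64 and 2.49 FPKM at rostral 1 wpi. The gene had 1.07, 1.36, 0.274, 0.502 and 0.503 FPKM in rostral controls and 2.21, 3.25, 1.16, 1.44 and 2.25 FPKM at rostral 1 wpi. The locus did not overlap between the groups, while the gene's highest control lay above its lowest injured library.

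The RPE65 locus fell by 1.56 (SE 0.26, limma adjusted p = 0.00303) where the gene rose by 1.45 (SE 0.40, adjusted p = 0.0389), and their ratio fell by 3.01 (SE 0.40, adjusted p = 0.0014). At caudal 1 wpi the ratio fell by 2.67 (SE 0.27, adjusted p = 0.000269). Locus and gene were called in opposite directions in 6 comparisons. The locus call at rostral 6 wpi was lost on leaving out any of rostral control replicates 1, 2 and 3 or rostral 6 wpi replicates 2, 3, 4 and 5, where the adjusted p reached 0.0853.

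The locus upstream of tuft1a, a gene of the tuftelin family, rose from low levels (chromosome 16, 22387336 to 22396682, gap 1631 bp, same strand). It had 0.175, 0.551, 1.09, 1.02 and 1.84 FPKM in rostral controls and 2.88, 2.95, 3.63, 2.92 and 2.84 FPKM at rostral 1 wpi. The gene had 41.5, 35.6, 86.9, 111 and 123 FPKM in rostral controls and 7.46, 8.94, 18.4, 12.0 and 16.7 FPKM at rostral 1 wpi. Neither overlapped between the groups. The locus rose by 1.87 (SE 0.43, limma adjusted p = 0.0176), the gene fell by 2.55 (SE 0.39, adjusted p = 0.00184), and the ratio rose by 4.42 (SE 0.37, adjusted p = 9.82e-05). The ratio at caudal 1 wpi rose by 4.35 (adjusted p = 1.9e-05), whereas the locus call there (1.70, adjusted p = 0.0308) was lost on leaving out any of caudal control replicates 1, 2 and 3 or caudal 1 wpi replicates 3, 4 and 5, up to an adjusted p of 0.0762.

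At AANAT, which encodes the arylalkylamine N-acetyltransferase of melatonin synthesis, the gene changed and the locus was not called. The head-to-head locus at 299 bp (chromosome 6, 23619727 to 23664586) had 8.96, 10.5, 8.52, 8.41 and 7.34 FPKM in rostral controls and 9.58, 4.33, 6.48, 4.97 and 3.65 FPKM at rostral 1 wpi. The gene had 0.101, 0.307, 0.325, 0.278 and 0.597 FPKM in rostral controls and 7.66, 6.84, 4.19, 7.83 and 8.83 FPKM at rostral 1 wpi. The groups overlapped for the locus and not for the gene. The gene rose by 4.15 (SE 0.32, limma adjusted p = 2.03e-05), the locus changed by -0.66 (SE 0.25, adjusted p = 0.121), and the ratio fell by 4.81 (SE 0.46, adjusted p = 0.000159). Without replicate 1 of rostral 1 wpi, the library with the fewest fragments, the locus fell by 0.86 (adjusted p = 0.0294).

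The locus tail to tail with ENSDARG00000033587 (chromosome 20, 2055632 to 2058830) likewise changed by -0.15 at rostral 1 wpi (limma adjusted p = 0.792) beside a rise of 4.96 in the gene, and the ratio fell by 5.11 (adjusted p = 0.000338).

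In several pairs the locus rose at rostral 1 wpi and the gene was not called there. The AQR, gon4lb and pabpc1a loci among them lay below 1 FPKM in every rostral control. They reached the mean of 1 FPKM asked of members through other libraries, so their rises are in part set by that choice. AQR encodes a helicase of the spliceosome, and its same-strand downstream locus at 1589 bp (chromosome 17, 51013223 to 51018525) was called higher in all 8 comparisons. It had 0.147, 0.211, 0.0595, 0.131 and 0.387 FPKM in rostral controls and 0.462, 1.81, 1.19, 5.41 and 2.08 FPKM at rostral 1 wpi, without overlap. It rose by 2.71 (SE 0.53, limma adjusted p = 0.00783), the gene changed by 0.22 (SE 0.18, adjusted p = 0.506), and the ratio rose by 2.49 (SE 0.54, adjusted p = 0.018). At caudal 6 wpi the rise of the locus was 3.02 (adjusted p = 0.0096), and the replicate block gave an adjusted p of 0.0592.

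EFNB3 encodes ephrin-B3, a membrane ligand of Eph receptors in axon guidance. Its same-strand upstream locus at 2305 bp (chromosome 7, 20943360 to 20963575) had 1.08, 1.08, 0.928, 0.653 and 1.28 FPKM in rostral controls and 4.71, 3.42, 1.96, 2.86 and 3.43 FPKM at rostral 1 wpi, without overlap. It rose by 1.59 (SE 0.26, limma adjusted p = 0.00291), the gene changed by -0.48 (SE 0.19, adjusted p = 0.14), and the ratio rose by 2.06 (SE 0.32, adjusted p = 0.00315). At rostral 2 wpi the gene fell by 0.78 (adjusted p = 0.017) where the locus rose by 1.60 (adjusted p = 0.000682). The locus was called in all 8 comparisons, but at caudal 6 wpi (1.23, adjusted p = 0.039) the replicate block gave an adjusted p of 0.0782, and leaving out any of caudal control replicates 1, 2, 3 and 4 ended the call both there and at caudal 4 wpi. Leaving out replicate 2 or 4 of caudal 4 wpi, or replicate 1, 3 or 5 of caudal 6 wpi, did the same, with adjusted p up to 0.0673 and 0.144. WRAP53 lay within 5000 bp of the same locus.

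**Figure D5:**
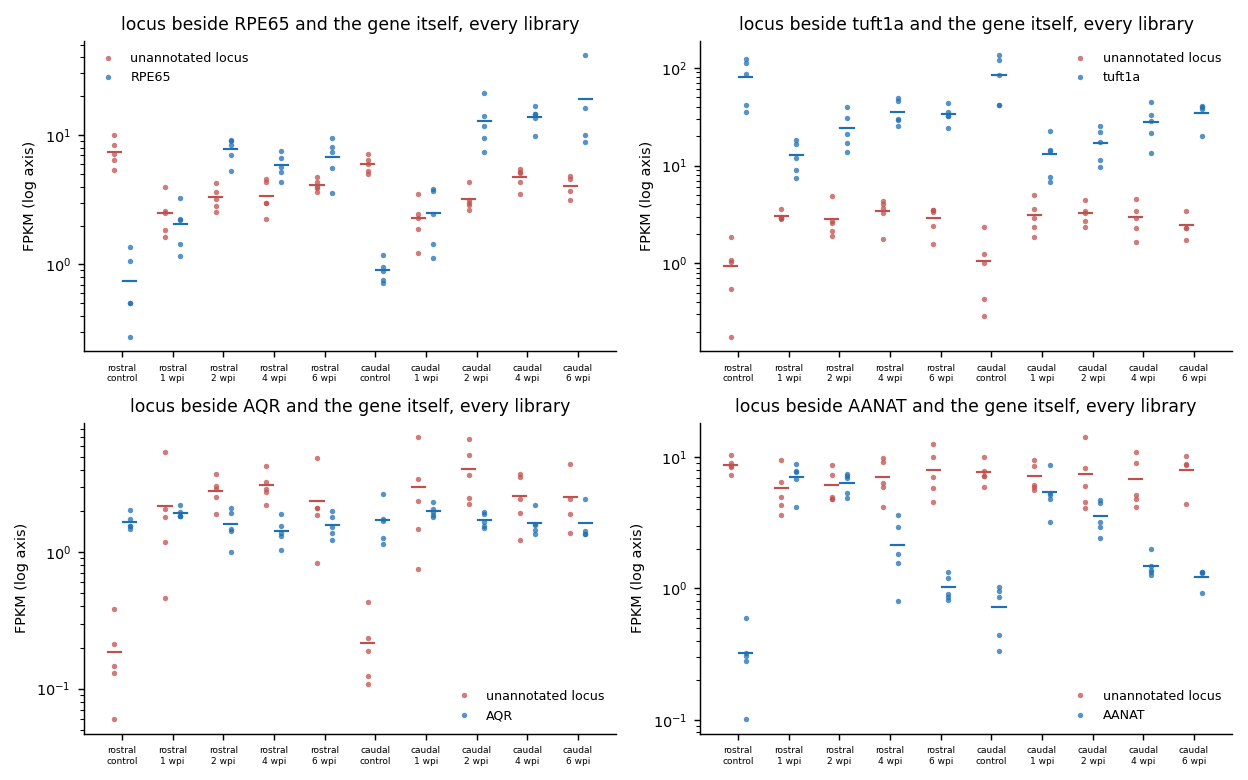
Level in FPKM (log axis) of the loci beside RPE65, tuft1a, AQR and AANAT, in red, and of the genes, in blue, in every library of the 10 groups on the horizontal axis, with bars at the group means. At rostral 1 wpi the RPE65 locus falls while the gene rises, the tuft1a locus rises while the gene falls, the AQR locus alone rises, and at AANAT the gene rises from at most 0.597 to at least 4.19 FPKM.

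A head-to-head locus 112 bp from gon4lb (chromosome 16, 28992381 to 28994597, with npr1b also near) had 0.243, 0.306, 0.393, 0.231 and 0.0255 FPKM in rostral controls and 1.52, 2.69, 0.871, 3.75 and 2.59 FPKM at rostral 1 wpi. The groups did not overlap. The locus rose by 2.79 (SE 0.44, limma adjusted p = 0.00247), gon4lb changed by -0.46 (adjusted p = 0.296), and the ratio rose by 3.25 (SE 0.44, adjusted p = 0.00154). Downstream of si:dkeyp-122a9.1 at 3964 bp (chromosome 22, 14332289 to 14334214) the locus rose by 2.99 (adjusted p = 0.00283), the gene changed by -0.17 (adjusted p = 0.89), and the ratio rose by 3.16 (adjusted p = 0.00257). Mean levels over all libraries were 1.22 FPKM for this locus and 0.214 FPKM for its gene. The mean of the locus is near the limit of 1 FPKM, so its rise may in part be set by the rule for that mean. At the level of the gene, near the added 0.1, a fall of the gene could hardly show, and the ratio mostly follows the locus.

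The locus upstream of pabpc1a, the cytoplasmic poly(A)-binding protein (chromosome 16, 54820699 to 54827629, gap 1655 bp), had 0.634, 0.652, 0.819, 0.413 and 0.465 FPKM in rostral controls and 2.78, 2.31, 2.16, 3.58 and 2.93 FPKM at rostral 1 wpi. All injured libraries were higher. The locus rose by 2.04 (SE 0.24, limma adjusted p = 0.000322), the gene changed by 0.61 (SE 0.21, adjusted p = 0.0874), and the ratio rose by 1.43 (SE 0.36, adjusted p = 0.0334). At 2 wpi the pabpc1a gene was higher as well, by 0.66 in the rostral (adjusted p = 0.0191) and 0.67 in the caudal cord (adjusted p = 0.0414). The locus upstream of pafah1b1b, a LIS1 gene of dynein regulation (chromosome 21, 39414401 to 39421025), fell by 1.17 (adjusted p = 0.0155) beside a change of 0.05 in the gene (adjusted p = 0.923), but the ratio was not called at rostral (-1.22, adjusted p = 0.112) or caudal 1 wpi (-0.98, adjusted p = 0.177). Its call at caudal 1 wpi (-1.02, adjusted p = 0.0354) was lost on leaving out caudal control replicate 1, 2, 3 or 5 or caudal 1 wpi replicate 3, 4 or 5, up to an adjusted p of 0.0891.

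The 6 best expressed members were mostly not called. The highest, at a mean of 196 FPKM, lay upstream of erv, a gene named for an endogenous retrovirus (chromosome 19, 7960976 to 7964698). It had 61.3, 73.5, 180, 475 and 284 FPKM in rostral controls and 45.6, 57.1, 125, 34.6 and 104 FPKM at rostral 1 wpi, so the groups overlapped (log2 change -1.31, SE 0.56, limma adjusted p = 0.172). The loci beside zgc:112994 (mean 107 FPKM), rusc1 (50.7 FPKM) and NISCH (48.3 FPKM) were called in 0 comparisons. The locus head to head with ENSDARG00000102438 (chromosome 16, 54687440 to 54690113) had 101, 185, 120, 139 and 102 FPKM in rostral controls and 59.6, 67.5, 53.8, 58.6 and 55.0 FPKM at rostral 1 wpi. It fell by 1.102 (SE 0.21, adjusted p = 0.00634) without overlap, next to a gene listed at 0 in 4 of the 5 rostral controls. The remaining one of the 6 was the uts2a locus.

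Across all comparisons, 590 of the 659 loci were called higher in none and 525 were called lower in none. At least 1 call was thus made for 10.5% of the loci upward and 20.3% downward, against 12.2% and 8.93% of all 30628 rows tested. Those rows include many of lower level than the members. Of the 13892 Ensembl genes with a mean of at least 1 FPKM, 16.9% were called higher at least once and 12.4% lower. Those called higher in all 8 were the loci beside uts2a, EFNB3 and AQR, of which the AQR locus met the level rule through libraries other than the rostral controls. The most comparisons in which a locus was called lower was 6, for 3 loci, of which the RPE65 locus was one.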

How the data were processed

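The 49 spinal cord RNA-seq libraries were assigned to 10 groups from their GEO labels. The authors deposited FPKM values per row and library. The submitters' processing notes name HISAT2 2.0.5, featureCounts 1.5.0-p3 and danRer11. How unannotated loci were assembled is not given in the sources used here. FPKM multiples gave whole fragments for 100% of values (tolerance 0.01). The total by which a library was scaled was not its sum of fragments. It was 15656017 for 25084943 fragments in rostral control replicate 4, and 40620699 for 25999589 in caudal 4 wpi replicate 3. The ratio of total to fragments had a coefficient of variation of 22.955% over libraries, and its part in the results was not tested.

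Each injury group was tested against its control by limma 3.58.1 under R 4.3.3 (two-sided, eBayes with trend) on log2(FPKM + 0.1), for rows with a mean of at least 0.1 FPKM, with Benjamini-Hochberg adjustment over all rows at 0.05. FPKM is not a count unit, so a test on the log scale was the main one. Scripts were tested on simulated counts with the same spread set for all rows, few rows changed and each row drawn independently. At rostral 1 wpi the ratio test recovered 3 of 131 simulated log2 differences of 1 and 52 of 121 of 2. At caudal 6 wpi it recovered 0 of 122 and 25 of 121. The level test recovered 23 of 100 and 96 of 100 at rostral 1 wpi, and 9 of 100 and 94 of 100 at caudal 6 wpi. Plots used matplotlib 3.10.9. Each locus was paired with its nearest Ensembl gene. Symbols matched 29178 of 31901 identifiers, in capitals where the table gives human-style symbols.

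Named loci were the 6 of highest level, the largest changes per orientation class at rostral 1 wpi among those called and not overlapping in both regions at 1 wpi, the largest ratio changes called in both regions, the 4 called most often, and those beside listed genes. Members and lists were chosen with earlier results of these data known. Same-numbered libraries correlated above 0.1 in every pair only at 6 wpi (lowest correlation 0.166 rostral and 0.162 caudal, against 0.010 to 0.095 elsewhere). At the other weeks every such correlation was above 0 as well, with means of 0.17 to 0.26. The labels give no origin for this pairing. Alternatives were another pseudocount, filter, normalization, variance model, replicate block, voom on recovered fragments, the best expressed neighbour, a gap of at most 1000 bp, and leaving out each library. Each replicate set alone was added after seeing the data.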

Additional observations from a re-analysis of the deposited data

Results flagged for a closer look

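In 1 of 30 sets of libraries examined, a library stood apart from the others of its group. The median log2 ratio of locus to neighbour on the 5′ side was -0.47 in replicate 5 of rostral 6 wpi, against -0.24 in the nearest of the other libraries and -0.17 in the highest. The critical value used is set so that chance flags about 1 in 20 such sets. Among the members, 0 loci moved in opposite directions in the 2 regions without overlap.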

How the results depend on the processing

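The members' median change kept its sign under quantile normalization in all 8 comparisons (-0.35 to -0.08). Of its 158 values under the alternatives (-0.41 to 0.04 over all, 4 above 0), 47 moved by more than the SD of the values from leaving out 1 library. Of 118 correlations of locus and gene changes 68 moved likewise, over a range of 0.37 to 0.73, all above 0. Of 85 called log2 changes of named loci 0 changed sign, and of 32 not called 4 did. Fitting all 10 groups together called 144 loci at rostral 1 wpi, 82 at rostral 4 wpi, 74 at rostral 6 wpi, 105 at caudal 2 wpi, 34 at caudal 4 wpi and 24 at caudal 6 wpi, and 45, 32, 50 and 9 ratios at rostral 1, rostral 6, caudal 1 and caudal 6 wpi. Without a variance trend there were 22 loci at rostral 6 wpi and 35 at caudal 2 wpi. Without a filter there were 21, 38 and 4 at rostral 6, caudal 2 and caudal 6 wpi, and with a mean of at least 1 FPKM 11 at caudal 4 wpi. The replicate block gave 77 at rostral 4 wpi, 77 at rostral 6 wpi, 2 at caudal 6 wpi and 0 ratios at caudal 6 wpi, and left the other counts within 1.5 times. Outside 6 wpi not every pair correlated above 0.1, although the mean correlation of same-numbered libraries was above 0 in each comparison (0.17 to 0.26), and 1 to 3 of 5 libraries correlated best with their own number (2 of 5 and 2 of 4 at 6 wpi).

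Replicates 1 to 3 alone called 20, 46, 23 and 7 loci at rostral 1, 2, 4 and 6 wpi, 20, 16 and 2 at caudal 1, 2 and 4 wpi, and 4, 0, 7 and 0 ratios at rostral 1, rostral 6, caudal 1 and caudal 6 wpi. Replicates 4 and 5 alone called 38, 5, 2 and 12 at the rostral weeks, 30, 0 and 0 at caudal 1, 2 and 4 wpi, and 0 ratios at rostral 1, rostral 6 and caudal 1 wpi. Both sets were chosen after seeing the data and hold fewer libraries. The correlation of locus and gene changes was 0.42 and 0.51 in them at rostral 1 wpi, and 0.50 and 0.53 at caudal 1 wpi.

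Leaving out 1 library gave 40 to 78 loci at rostral 1 wpi (lowest without rostral control replicate 3), 78 to 159 at rostral 2 wpi (rostral 2 wpi replicate 5), 23 to 51 at rostral 4 wpi (rostral 4 wpi replicate 1) and 16 to 37 at rostral 6 wpi (rostral control replicate 3, rostral 6 wpi replicates 4 and 5). It gave 75 to 140 at caudal 1 wpi (caudal 1 wpi replicate 4), 21 to 84 at caudal 2 wpi (caudal 2 wpi replicate 4), 3 to 22 at caudal 4 wpi (highest without caudal control replicate 5) and 1 to 10 at caudal 6 wpi (caudal 6 wpi replicate 1). For ratios it gave 17 to 24 at rostral 1 wpi (rostral 1 wpi replicate 5), 7 to 19 at rostral 6 wpi, 22 to 34 at caudal 1 wpi and 1 to 3 at caudal 6 wpi. Causes were not tested. The counts under these settings are given without the share of all rows called, so none is shown to be particular to these loci. Levels near 1 FPKM limit what these counts can show.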
